A study of Homo sapiens with 22 samples.

Results

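The zinc finger genes of chromosome 19 described here are the protein-coding genes on that chromosome whose RefSeq symbol is ZNF followed by a digit. There are 250 of them among 20037 protein-coding genes, beside 267 ZNF genes on other chromosomes and 1201 other protein-coding genes on chromosome 19. They were followed in THP-1 cells, a human monocytic leukaemia line. One condition, called knockdown, was infected with a lentivirus carrying a short hairpin against QKI5. The other, called control, was infected with a lentivirus carrying a control hairpin, according to the sample labels. The series design text instead calls these cells untreated, so it is not settled whether control cells carried a virus. QKI binds RNA and is known as a splicing regulator, and QKI5 is its isoform of the nucleus. Chromatin immunoprecipitation (ChIP) mapped H3K4me3, the trimethyl mark of histone H3 found at active promoters, together with RNA polymerase II (Pol II), and crosslinking immunoprecipitation (CLIP) mapped RNA sites bound by QKI5. The series of 22 samples came with 6 peak lists, 1 for each assay and condition, and each list was made from both replicates. No list has a replicate spread, so no difference between conditions below carries a test, and read depth is unknown.

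Most ZNF genes of chromosome 19 encode proteins with a row of C2H2 zinc fingers, each of which contacts a few bases of DNA. Many of them also carry a KRAB domain, which recruits the co-repressor TRIM28 and, through it, SETDB1, the enzyme that writes H3K9me3. Their targets are often transposable elements. The genes arose by repeated local duplication and lie in clusters in which neighbouring genes are close relatives. H3K9me3 has been described over the zinc finger exons at the 3' ends of such genes, while their promoters can carry H3K4me3. The peak lists hold neither H3K9me3 nor TRIM28 itself.

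Closely related ZNF promoters had the same H3K4me3 state in many pairs and a different one in others. Of the 250 genes, 219 had a promoter in the RefSeq table, a window from 250 bases before to 50 after the start site. Pairs of these promoters had a median identity of 50.5% after global alignment. A promoter at least 70% identical was found for 65 genes, and for all 65 the closest match lay in the same cluster of genes. These include 4 entries in which a gene and its read-through locus have the same promoter. Of the 65, 48 had the same H3K4me3 state over the promoter as their closest match, and in 43 of these both were marked in both lists. The 4 read-through entries agree because their promoter is the same. Of all 219 promoters, 181 were marked in both lists, so most pairs agree whatever their relation. Agreement beyond that share was not tested. Of the pairs in which one promoter lay under H3K4me3 and its closest match did not, 2 are shown, with ZNF132 and ZNF404 as examples from other clusters; all 6 genes were chosen after their values were seen. ZNF91, a KRAB protein known to repress SVA elements, was marked, and ZNF208 was not. ZNF431 was marked and ZNF714 was not. ZNF132 had the largest ratio of knockdown to control H3K4me3 width, and ZNF404 the promoter with the fewest CpG dinucleotides. Sequences are RefSeq's for GRCh38.p14, 5′ to 3′ on the strand of the gene, and capitals mark CCGGAAG, a binding motif of ETS factors, or CCAAT, the motif of NF-Y, on either strand.
ZNF91 (chr19:23395422-23395721, minus strand): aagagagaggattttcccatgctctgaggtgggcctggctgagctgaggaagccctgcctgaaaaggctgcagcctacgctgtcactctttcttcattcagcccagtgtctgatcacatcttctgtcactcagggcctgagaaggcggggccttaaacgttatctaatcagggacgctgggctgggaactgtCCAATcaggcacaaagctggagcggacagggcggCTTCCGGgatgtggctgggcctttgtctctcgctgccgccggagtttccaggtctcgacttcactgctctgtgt
ZNF208 (chr19:22010894-22011193, minus strand): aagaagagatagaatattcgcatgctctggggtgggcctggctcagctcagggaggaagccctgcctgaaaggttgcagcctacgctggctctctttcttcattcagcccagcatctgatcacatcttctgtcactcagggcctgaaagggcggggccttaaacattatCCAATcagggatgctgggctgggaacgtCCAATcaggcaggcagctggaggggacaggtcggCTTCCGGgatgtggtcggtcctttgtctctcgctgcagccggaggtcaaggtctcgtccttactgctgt
ZNF431 (chr19:21141790-21142089, plus strand): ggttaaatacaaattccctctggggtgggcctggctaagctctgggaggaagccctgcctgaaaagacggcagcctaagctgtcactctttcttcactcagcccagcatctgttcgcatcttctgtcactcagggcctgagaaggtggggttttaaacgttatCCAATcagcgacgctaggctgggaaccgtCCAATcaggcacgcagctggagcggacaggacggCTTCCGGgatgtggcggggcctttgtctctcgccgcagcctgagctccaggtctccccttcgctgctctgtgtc
ZNF714 (chr19:21081953-21082252, plus strand): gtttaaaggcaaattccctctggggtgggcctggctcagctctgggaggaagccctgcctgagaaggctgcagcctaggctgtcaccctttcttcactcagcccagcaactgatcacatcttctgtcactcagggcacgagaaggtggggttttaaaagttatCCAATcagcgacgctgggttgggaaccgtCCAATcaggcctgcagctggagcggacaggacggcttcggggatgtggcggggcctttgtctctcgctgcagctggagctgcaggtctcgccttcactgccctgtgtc
ZNF132 (chr19:58440104-58440403, minus strand): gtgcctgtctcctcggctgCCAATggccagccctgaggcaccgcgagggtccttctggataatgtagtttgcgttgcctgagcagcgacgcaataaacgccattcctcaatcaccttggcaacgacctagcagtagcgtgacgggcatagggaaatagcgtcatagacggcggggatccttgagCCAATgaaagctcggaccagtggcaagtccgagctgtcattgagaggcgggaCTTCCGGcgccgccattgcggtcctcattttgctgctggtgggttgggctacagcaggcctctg
ZNF404 (chr19:43883915-43884214, minus strand): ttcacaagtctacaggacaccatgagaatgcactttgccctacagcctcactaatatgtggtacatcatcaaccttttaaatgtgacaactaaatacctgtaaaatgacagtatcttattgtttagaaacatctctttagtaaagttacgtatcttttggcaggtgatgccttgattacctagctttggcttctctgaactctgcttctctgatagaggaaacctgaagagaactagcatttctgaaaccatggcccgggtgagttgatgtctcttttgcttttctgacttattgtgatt

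The promoters of ZNF431 and ZNF714 were 91% identical, with 273 matching bases, 27 mismatches and no gap. ZNF431 holds CCGGAAG on the reverse strand at bases 227 to 233 of its window. There ZNF714 has the substitution C231G, counted from 1 at the 5′ end of the ZNF431 window, and so lacks the motif. Both hold CCAAT at the same 2 places, the nearer one starting 58 bases before the start site. The 5' H3K4me3 peak of ZNF431 was 2923 bp wide in knockdown and 3325 bp in control, and its 5' Pol II peak was 1987 bp in knockdown and 1996 bp in control. ZNF714 had no peak of either mark in either list. The promoters of ZNF91 and ZNF208 were 86.0% identical and did not differ within the CCGGAAG motif, which both hold. ZNF91 had a 5' H3K4me3 peak of 4740 bp in knockdown and 3323 bp in control and Pol II peaks of 3576 bp in knockdown and 3250 bp in control, while ZNF208 had none. Marked and unmarked promoters were alike in how close their nearest relative was. Of the 181 member promoters under H3K4me3 in both lists, 54 (29.8%) had a match of at least 70%, and of the 38 others 11 (28.9%) did. Whether reads that fit several near-identical places were kept is not given in the sources used here.

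CCGGAAG occurred in 99 of the 219 promoters (45.2%) and in 14.2% of 15843 protein-coding promoters. The motifs were searched on both strands and counted without regard to overlap between them. Among promoters under H3K4me3 in both lists, the share with CCGGAAG was 47.5% for these genes, 34.8% for ZNF genes of other chromosomes, 18.6% for other genes of chromosome 19 and 19.7% for all genes. CCAAT was found in 53.9% of the members' promoters, against 36.4% of all promoters. TATAAA, the TATA box, was found in 2.28%, against 9.75% of all promoters. GGGCGG, the GC box of SP and KLF factors, was found in 67.1%, against 58.3% of all promoters. AAGATGGC, the motif of YY1, was present in 6.39% of members' promoters and 3.86% of all. ACTACAA, the motif of ZNF143, was present in 5.02% of members' promoters and 3.13% of all. GCGCATGC, part of the motif of NRF1, was present in 4.57% of members' promoters and 4.28% of all. For GGGCGG and GCGCATGC the order turned round in promoters under H3K4me3 in both lists. There GGGCGG was found in 69.1% for members, 79.7% for other genes of chromosome 19 and 73.8% for all genes. GCGCATGC was found there in 3.87% for members and 5.71% for all genes. The order of members and all genes was kept there for the other motifs. Members are close relatives, so their shared motifs are not independent occurrences. The median promoter held 21 CpG dinucleotides in the 181 marked members and 16 in the 38 others. Over all genes the medians were 27 in marked promoters and 5 in the others.

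**Figure D1:**
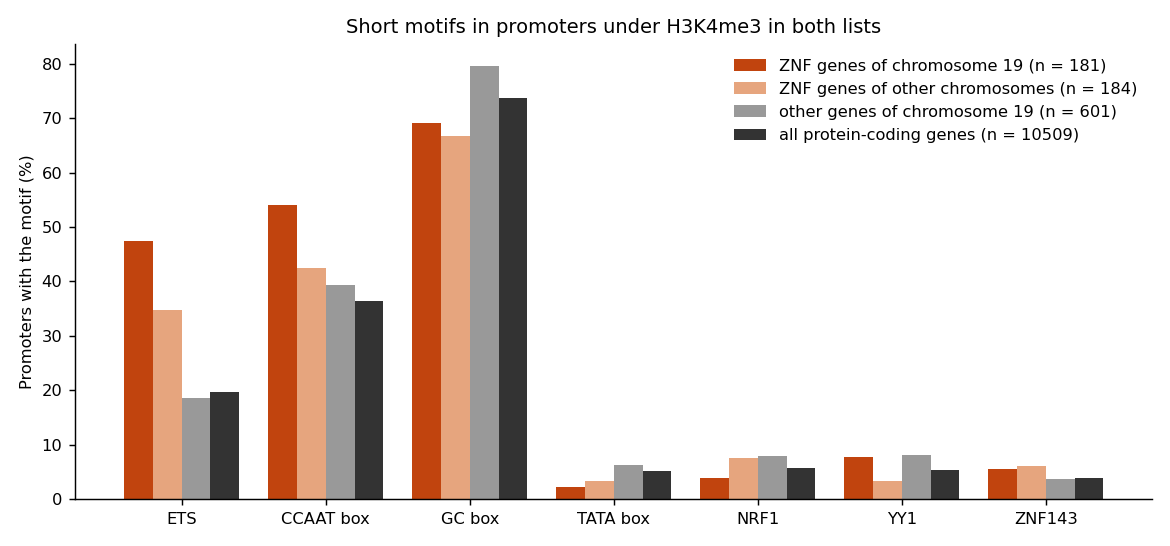
Share of promoters (percent, 300 bp windows) that hold each of 7 short motifs on either strand, among promoters under an H3K4me3 peak in both lists, for 4 sets of genes. The ETS bar of the ZNF genes of chromosome 19 stands at 47.5%, against 19.7% for all protein-coding genes.

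H3K4me3 lay at the same ZNF genes in both conditions. A gene-end peak is one that comes within 1 kb of the gene's RefSeq start or end, and it was present in both lists at 193 of the 250 genes (77.2%), against 66.6% of all protein-coding genes. ZNF genes of other chromosomes had 83.5% and other genes of chromosome 19 had 65.1%. A gene-end peak was present in knockdown alone at 1 member, against 0.779% of all genes, and in control alone at 1 member, against 0.554% of all genes. It was in neither list at 55 genes (22%), against 32.0% of all genes. Neighbours shared peaks, so that the 194 genes with a gene-end peak in the knockdown list were covered by 182 peaks and the 194 in the control list by 181. ZNF99 was the gene in knockdown alone, with a peak of 627 bp at chr19:22783686-22784312 (GRCh38.p5). No control H3K4me3 peak lay within 147454 bp of it. A Pol II peak of the narrowest width in its list overlapped it and was also in knockdown alone. ZNF575 was the gene in control alone, and its 2754 bp control peak overlapped a 2230 bp knockdown peak that fell outside the 1 kb window. When peaks within 1 kb of any RefSeq start site of a gene were counted in place of its outer ends, 0 members with such a start site had H3K4me3 in a single list.

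**Figure D2:**
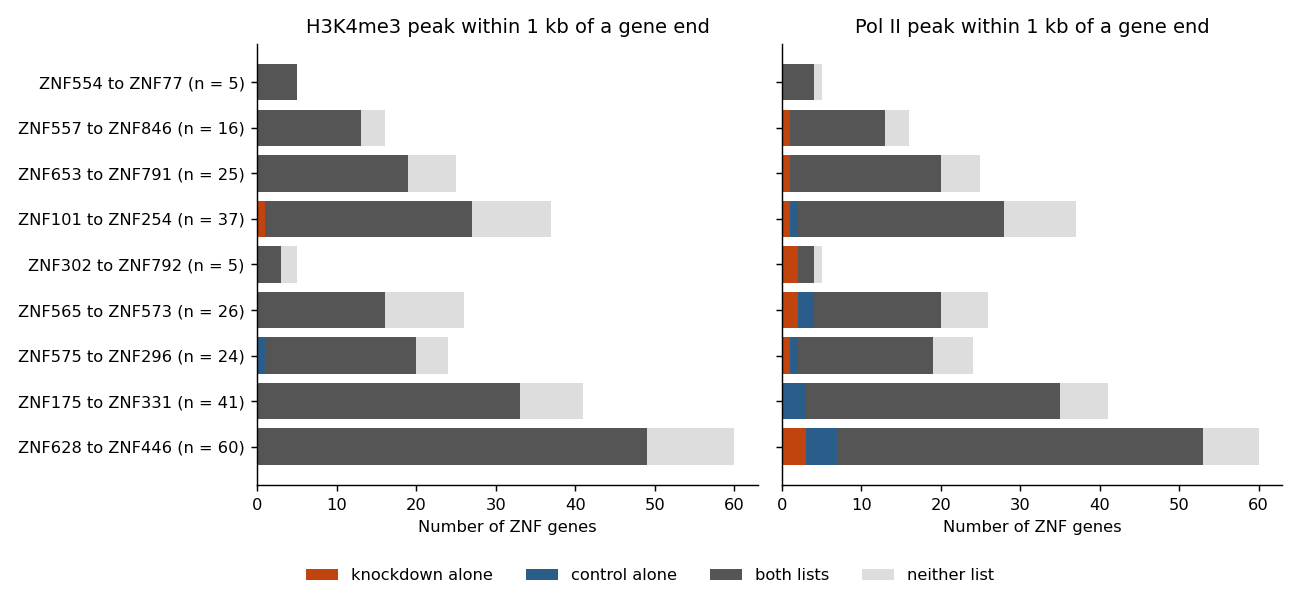
Number of ZNF genes with a gene-end peak in knockdown alone, control alone, both lists or neither list, for H3K4me3 (left) and Pol II (right), in the 9 clusters of at least 5 genes ordered along the chromosome. The ZNF554 to ZNF77 cluster had H3K4me3 at all 5 genes, and single-list genes were spread over the clusters.

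Marked and unmarked genes were mixed within clusters. Runs of members with gaps of at most 1 Mb formed 16 clusters, and the 9 with at least 5 members held 239 genes. The share with H3K4me3 in both lists was 100% of 5 genes from ZNF554 to ZNF77, 81.7% of 60 from ZNF628 to ZNF446 and 80.5% of 41 from ZNF175 to ZNF331. It was 70.3% of 37 from ZNF101 to ZNF254 and 61.5% of 26 from ZNF565 to ZNF573. The ZNF101 to ZNF254 cluster, which holds ZNF91 and ZNF208, also had the most genes with no H3K4me3 peak anywhere between their ends, 10 of 37. The other clusters of at least 5 genes had between 0 and 7 such genes.

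The 55 ZNF genes without a gene-end H3K4me3 peak fell into a group with an internal peak and a group with none. In 20 of them an H3K4me3 peak lay inside the gene in both lists. In 17 of these 20, H3K4me3 came within 1 kb of a RefSeq start site of the gene in both lists. ZNF331, a gene with several promoters, had an internal peak of 2646 bp in knockdown and 2750 bp in control. ZNF558, a repressor known to act on SPATA18, had one of 2350 bp in knockdown and 3036 bp in control. ZNF420, known as a regulator of p53, had one of 4235 bp in knockdown and 4333 bp in control. The other 35 had no H3K4me3 peak between their ends in either list. Each gene was in the same group in knockdown and in control. At 28 of the 35 there was no Pol II peak either, among them ZNF208, ZNF676, ZNF729, ZNF723, ZNF728 and ZNF681, which lie in the same cluster, and ZNF154, a gene known for promoter methylation in tumours. ZNF814 and ZNF486 had gene-end Pol II in both lists but no H3K4me3. At ZNF486 a peak of 696 bp in knockdown and one of 762 bp in control lay near the 3' end and did not overlap.

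H3K4me3 peaks at ZNF genes were narrower than at the average gene and of similar width in both lists. The widest gene-end peak per gene had a median width of 3227 bp in knockdown and 3328 bp in control over the 193 genes with both. The medians over all 13350 such genes were 3747 bp in knockdown and 3886 bp in control. The median ratio of knockdown to control width was 0.948, against 0.974 for all genes. ZNF580 and ZNF581 shared the widest peak, 11352 bp in knockdown and 12320 bp in control. ZNF526 had 8137 bp in knockdown and 9301 bp in control, and ZNF146, a protein of zinc fingers only, had 7203 bp in knockdown and 7362 bp in control. ZNF541, known as a testis gene, had the narrowest shared peak, 834 bp in knockdown and 632 bp in control.

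A change of at least 1.5-fold in H3K4me3 width was seen at 7 of the 193 genes. The peak was wider in knockdown at 2 genes (1.04%), against 1.96% of all genes. ZNF132 had 2398 bp in knockdown and 1277 bp in control, a ratio of 1.88, and ZNF573 had 4337 bp in knockdown and 2712 bp in control, a ratio of 1.60. The peak was narrower in knockdown at 5 genes (2.59%), against 2.22% of all genes. ZNF837 had 4385 bp in knockdown and 12188 bp in control, where 2 knockdown peaks lay under the single control peak. ZNF865 and ZNF524 shared 1 control peak of 9842 bp, under which lay separate knockdown peaks of 3797 and 3940 bp. ZNF432 and ZNF614 shared 1 control peak of 4665 bp, beside knockdown peaks of 2395 and 2920 bp. At ZNF432 the knockdown peak did not overlap that control peak, and its 5'-end peak was 2395 bp in knockdown and 3029 bp in control. At ZNF837, ZNF865 and ZNF524, 1 control peak thus stood against 2 knockdown peaks.

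**Figure D3:**
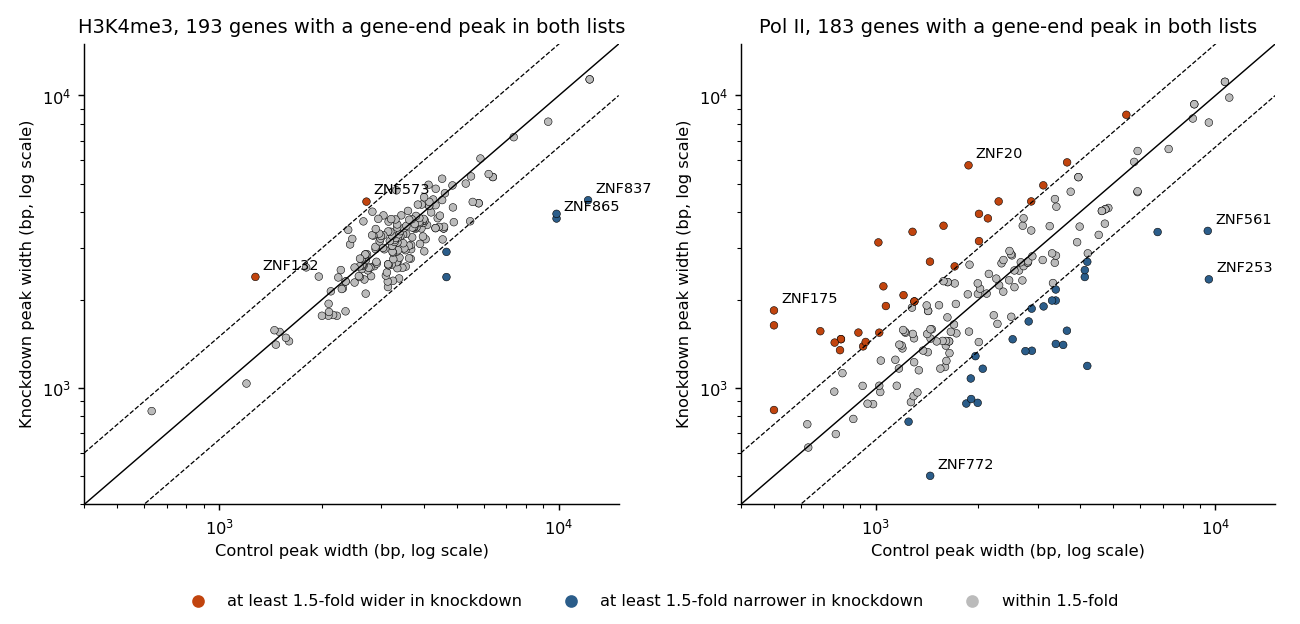
Width of the widest gene-end peak in knockdown (vertical, bp, log scale) against control (horizontal, bp, log scale) for H3K4me3 (left) and Pol II (right); each point is a ZNF gene, the solid line marks equal widths and the dashed lines a 1.5-fold change. H3K4me3 points hug the line with 7 beyond 1.5-fold, while Pol II points scatter on both sides with 31 wider and 27 narrower.

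Gene-end Pol II was in knockdown alone and in control alone at equal numbers of ZNF genes. Both lists had gene-end Pol II at 183 genes (73.2%), against 57.6% of all genes. ZNF genes of other chromosomes had 78.7% and other genes of chromosome 19 had 61.9%. Gene-end Pol II was present in knockdown alone at 11 members (4.4%), against 3.97% of all genes, and in control alone at 11 members (4.4%), against 1.91% of all genes. It was in neither list at 45 genes (18%), against 36.5% of all genes. The 11 genes in knockdown alone were ZNF358, ZNF132, ZNF304, ZNF30, ZNF461, ZNF491, ZNF99, ZNF792, ZNF382, ZNF285 and ZNF329. The peak lay at the 5' end in 5 of them and at the 3' end in 4, and the strand of the other 2 was not known. In 6 of the 11 it had the narrowest width of the list. ZNF329 had Pol II within 1 kb of a RefSeq start site in both lists. ZNF132 had a 5' peak of 1698 bp in knockdown at chr19:58439062-58440759 (GRCh38.p5), over the promoter printed above, with no control Pol II peak within 10385 bp. ZNF304, a KRAB protein known to silence tumour suppressor genes, had a 5' peak of 1596 bp in knockdown and no control peak within 10349 bp, under H3K4me3 of 3180 bp in knockdown and 3177 bp in control. ZNF358 had a peak of 1717 bp at its 3' end in knockdown, which overlapped a 1852 bp control peak outside the window. ZNF382, another KRAB repressor, had a peak of the narrowest width at its 3' end in knockdown, 3328 bp from the nearest control peak.

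The 11 genes with gene-end Pol II in control alone were ZNF587B, ZNF577, ZNF444, ZNF567, ZNF43, ZNF665, ZNF283, ZNF71, ZNF565, ZNF324B and ZNF415. The peak lay at the 5' end in 6 of them and at the 3' end in 4, and the strand of ZNF665 was not known. ZNF444, ZNF567, ZNF43, ZNF565 and ZNF324B had Pol II within 1 kb of a RefSeq start site in both lists. The ZNF565 control peak lay 265 bp from a knockdown peak of 8592 bp. ZNF577 had a control peak of 1187 bp at the 5' end, 15802 bp from the nearest knockdown peak, under H3K4me3 of 1576 bp in knockdown and 1453 bp in control. ZNF71 had a control peak of 756 bp at the 5' end and ZNF283 one of 762 bp. ZNF43 had a 945 bp control peak at its 3' end that overlapped a 3138 bp knockdown peak outside the window. All peaks of this group were at most 1338 bp wide. When the other list was required to have no Pol II peak within 5 kb of either gene end, 2 genes remained in knockdown alone and 2 in control alone.

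Pol II peaks differed in width in both directions. The median gene-end width was 1977 bp in knockdown and 1995 bp in control, with a median ratio of 0.99, against 1.05 for all genes. The peak was at least 1.5-fold wider in knockdown at 31 of 183 genes (16.9%), against 17.4% of all genes, and at least 1.5-fold narrower at 27 (14.8%), against 9.90% of all genes. In 30 of the 183 genes the widest knockdown and control peaks lay at different places. At the 5' end alone, 158 genes had Pol II in both lists, of which 21 were wider in knockdown (13.3%, against 16.0% of all genes) and 19 narrower (12%, against 9.03% of all genes). ZNF675, known as an inhibitor of TRAF6 signalling, had a 5' peak of 2227 bp in knockdown and 1052 bp in control. ZNF57 had 1564 bp in knockdown and 686 bp in control. ZNF772 had a knockdown peak of the narrowest width and a control peak of 1445 bp, ZNF430 had 1415 bp in knockdown and 3387 bp in control, and ZNF709 had 890 bp in knockdown and 1994 bp in control. ZNF808, a KRAB protein needed for pancreas development, had 5' Pol II of similar width, 2396 bp in knockdown and 2348 bp in control, with H3K4me3 of 3221 bp in knockdown and 4546 bp in control. ZNF274, which recruits SETDB1 to the 3' ends of other zinc finger genes, kept wide gene-end Pol II, 6563 bp in knockdown and 7281 bp in control.

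The 2 marks went together at these genes. Both were present at a gene end of 185 genes in knockdown (74.0%, against 58.7% of all genes) and of 184 in control (73.6%, against 56.9% of all genes). Of the genes with H3K4me3, 95.4% in knockdown and 94.8% in control also had Pol II, against 87.1% in knockdown and 84.7% in control over all such genes. This share was also high for ZNF genes of other chromosomes, 94.2% in knockdown and 92.4% in control. For other genes of chromosome 19 it was 91.9% in knockdown and 89.8% in control. ZNF536, known from the nervous system, was an exception among members. It had H3K4me3 of 3884 bp in knockdown and 4463 bp in control and no gene-end Pol II in either list.

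At the 5' end the marks reached less far upstream than at other genes. Strand was known for 225 members, and 173 had H3K4me3 at the 5' end in knockdown (76.9%, against 68.2% of all genes) and 174 in control (77.3%, against 68.0% of all genes). These peaks reached a median of 829 bp upstream of the 5' end in knockdown and 912.5 bp in control. For all genes the medians were 1212 bp in knockdown and 1247 bp in control. More than 1 kb upstream was covered at 39.9% of these genes in knockdown and 43.1% in control, against 60.5% in knockdown and 61.9% in control over all genes. Downstream they reached a median of 2276 bp in knockdown and 2389.5 bp in control, close to the 2380 bp in knockdown and 2460 bp in control of all genes. Another gene's end lay within 1 kb upstream at 20.4% of members and 26.2% of all genes. Without those genes the members' upstream reach was 768 bp in knockdown and 839.5 bp in control, against 1009 bp in knockdown and 1046 bp in control over all genes. Pol II lay at the 5' end of 167 members in knockdown (74.2%, against 61.5% of all genes) and 166 in control (73.8%, against 59.3% of all genes). It reached 673 bp upstream in knockdown and 653.5 bp in control, against 901 bp in knockdown and 869 bp in control over all genes. More than 1 kb upstream was covered by Pol II at 26.9% of these genes in knockdown and 25.3% in control, against 44.2% in knockdown and 42.9% in control over all genes.

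**Figure D4:**
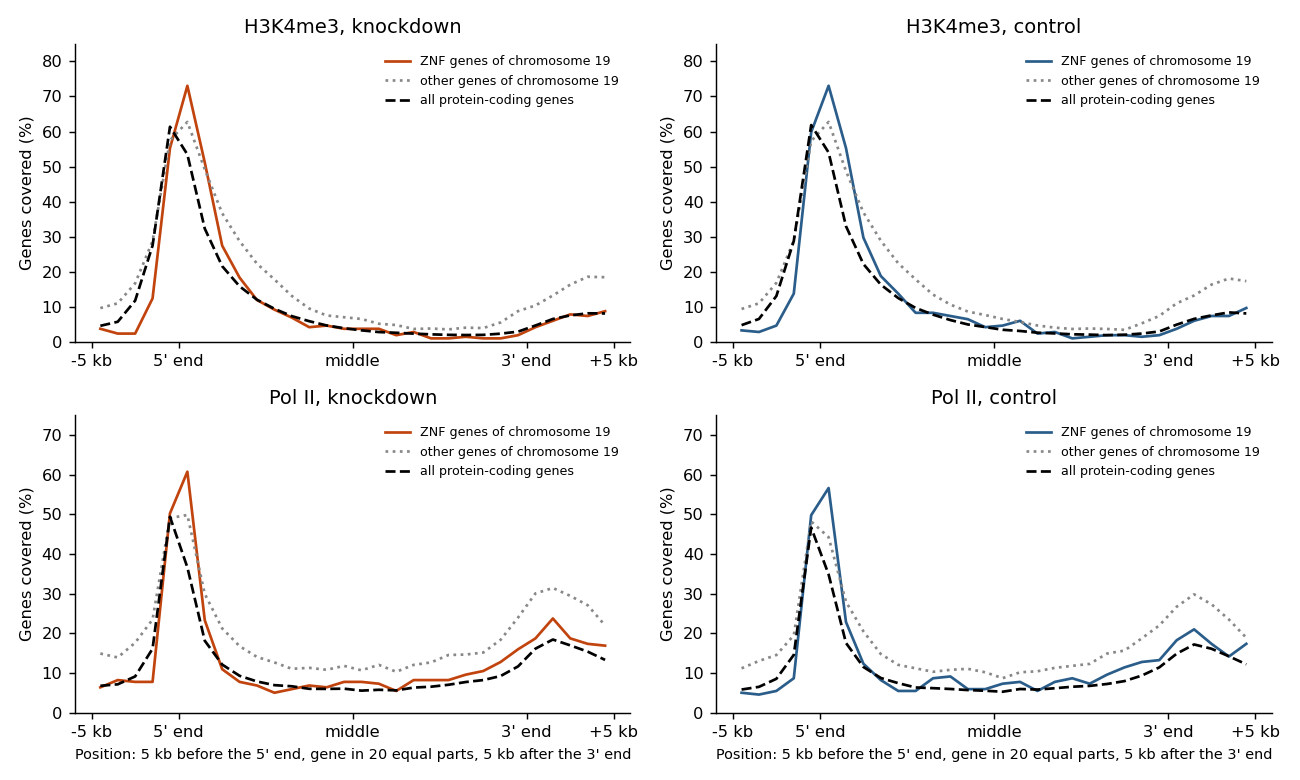
Share of genes (percent) with a peak over each of 30 points, from 5 kb before the 5' end, through 20 equal parts of the gene, to 5 kb after the 3' end, for H3K4me3 (top) and Pol II (bottom) in knockdown (left) and control (right), over genes of at least 5 kb with known strand (219 ZNF genes of chromosome 19). H3K4me3 covered the first part of the gene body in 73.1% of these ZNF genes in both conditions, and Pol II showed a second, lower rise just after the 3' end.

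Pol II, but not H3K4me3, was frequent at the 3' ends, where such genes carry their zinc finger exons. It was more frequent still at the 3' ends of other genes of chromosome 19. Pol II was present at the 3' end of 80 of 225 members in knockdown (35.6%, against 27.1% of all genes) and 82 in control (36.4%, against 25.5% of all genes). Other genes of chromosome 19 had 48.3% in knockdown and 46.1% in control, and ZNF genes of other chromosomes 34.2% in knockdown and 35.1% in control. For H3K4me3 the members' counts were 11 in knockdown (4.89%, against 10.9% of all genes) and 13 in control (5.78%, against 11.1% of all genes). The 3' Pol II peak was separate from any peak at the 5' end in 79 genes in knockdown (35.1%, against 23.2% of all genes) and 81 in control (36%, against 21.7% of all genes). It stood without H3K4me3 at that end in 69 members in knockdown (30.7%, against 18.2% of all genes) and 72 in control (32%, against 16.9% of all genes). That share was 28.7% in knockdown and 27.7% in control for other genes of chromosome 19. For ZNF genes of other chromosomes it was 28.9% in each condition. Among the 124 members whose 3' end lay over 5 kb from the ends of any other gene, 34 had Pol II there in knockdown (27.4%, against 14.4% of all genes) and 29 in control (23.4%, against 13.2% of all genes). The other genes of chromosome 19 had 29.2% in knockdown and 28.6% in control, and the ZNF genes of other chromosomes 23.7% in knockdown and 26.0% in control. H3K4me3 was found at 1 isolated 3' end in each condition (0.806%, against 3.10% of all genes in knockdown and 3.11% in control).

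**Figure D5:**
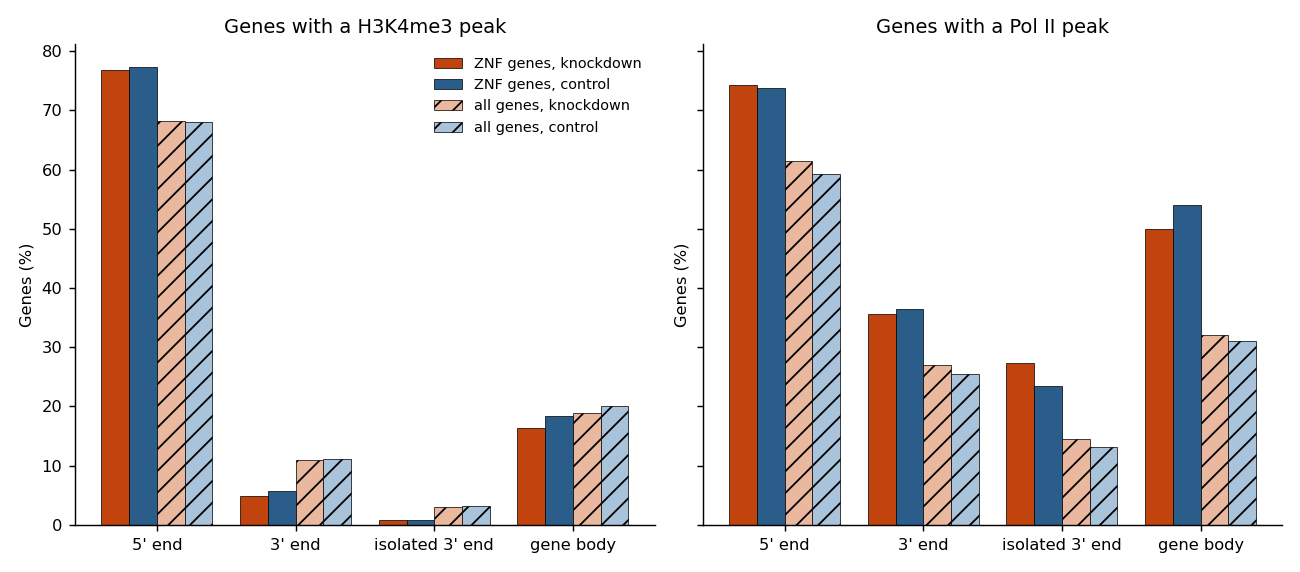
Share of genes (percent) with an H3K4me3 (left) or Pol II (right) peak at the 5' end, the 3' end, a 3' end over 5 kb from other gene ends, or inside the gene over 1 kb from both ends. For each place the bars run from the ZNF genes of chromosome 19 in knockdown and control to all protein-coding genes in knockdown and control; Pol II at isolated 3' ends stood at 27.4% of these ZNF genes in knockdown and 23.4% in control, against 14.4% in knockdown and 13.2% in control over all genes.

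The genes with 3' Pol II were partly different in the 2 conditions. Both lists had it at 55 of 225 members (24.4%, against 20.6% of all genes). It was in knockdown alone at 25 members (11.1%, against 6.43% of all genes) and in control alone at 27 (12%, against 4.93% of all genes). Other genes of chromosome 19 had 9.39% in knockdown alone and 7.17% in control alone, and ZNF genes of other chromosomes 5.33% and 6.22%. Both lists had a 3' peak apart from the 5' end at 54 members, and the knockdown and control peaks overlapped at 41 of these. Over the 54, the median width was 2101.5 bp in knockdown and 2125.5 bp in control. Peaks in knockdown alone had a median of 762 bp and those in control alone 950 bp. ZNF121 had the widest, 9835 bp in knockdown and 10982 bp in control, which reached 6991 bp into the gene and 2843 bp past its end in knockdown, and 7897 bp into the gene and 3084 bp past its end in control. ZNF850 had 8343 bp in knockdown and 8576 bp in control, and also reached mostly into the gene, by 5836 bp in knockdown and 6009 bp in control. ZNF93, a KRAB protein known to repress LINE-1 elements, had 8082 bp in knockdown and 8687 bp in control, of which 7064 bp in knockdown and 7691 bp in control lay past the gene end. ZNF587 and ZNF814 shared a peak of 9334 bp in knockdown and 8663 bp in control. At ZNF561 a control peak of 9492 bp stood over 4 knockdown peaks, the one at the 3' end 3444 bp wide. At ZNF20 the knockdown peak of 5772 bp stood over a control peak of 803 bp. The peak at the 3' end of ZNF224, a KRAB repressor of aldolase A, was 4085 bp in knockdown and 4741 bp in control and is also the 5' peak of the next gene, ZNF225. Over all members, the 3' peak apart from the 5' end came within 1 kb of a start site of another gene in 13 of 79 genes in knockdown and 10 of 81 in control.

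Inside the genes Pol II peaks were common. A Pol II peak over 1 kb from both ends was found in 125 of 250 members in knockdown (50%, against 32.1% of all genes) and 135 in control (54.0%, against 31.1% of all genes), with 104 in both. The median gene length was 23254.5 bp for members and 24115 bp for all genes. In genes of 20 to 40 kb the share was 56.5% of members in knockdown and 60.2% in control, against 41.5% in knockdown and 40.5% in control over all genes. The other genes of chromosome 19 in that class had 61.4% in knockdown and 60.2% in control. Counting peaks over 1 kb from every RefSeq start site and away from H3K4me3, 100 members had one in knockdown (40.0%, against 24.5% of all genes) and 114 in control (45.6%, against 22.8% of all genes). Of these peaks 48.2% in knockdown and 50.4% in control had the narrowest width of the list, against 49.8% in knockdown and 50.5% in control over all genes. The widest internal peak of ZNF274 was 3957 bp in knockdown and 10518 bp in control, the widest of all members in control. ZNF226 had one of 7524 bp in knockdown and 7232 bp in control. Internal H3K4me3 was found in 41 members in knockdown (16.4%, against 18.9% of all genes) and 46 in control (18.4%, against 20.1% of all genes).

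QKI5 CLIP found few sites in the RNA of these genes in knockdown and more in control. The CLIP lists held 669 rows in knockdown and 7337 in control over all genes, so the counts of members move with the length of the lists. At least 1 row named 4 members in knockdown (1.60%, against 1.75% of all genes) and 38 in control (15.2%, against 13.2% of all genes). The 62 control rows formed 41 sites once adjoining rows were joined, and the 5 knockdown rows formed 4 sites. Read numbers, log2 enrichment and -log10 p of each row are the authors'.

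The only site in both lists lay in ZNF536, at chr19:30313237-30313258 on the plus strand (GRCh38.p5). It had 54 reads and a log2 enrichment of 10.70 in knockdown, and 32 reads and 7.92 in control. The -log10 p was 15.7 in both lists despite the different reads, so this value does not compare the lists. By reads and log2 enrichment the site was the strongest among members in both lists. The other knockdown rows were in ZNF254 with 6 reads, ZNF585B with 7 and ZNF791 with 6. ZNF254 also had a control row of 10 reads, at another place. In control the next highest after ZNF536 was ZNF460 with 15 reads, followed by ZNF136, ZNF324 and ZNF865 with 13 each and ZNF611 with 12. At ZNF136 the row's log2 enrichment was 6.62, with 13.7 as its -log10 p. The median control row had 8 reads. Close relatives can share reads, so the assignment of single rows to genes of 1 cluster is uncertain.

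Control CLIP sites lay along the whole gene. Of the 41 control sites, 14 lay in the 5' part of the gene, 8 in the middle and 19 in the 3' part, when each gene was cut into 3 equal parts and sites beyond a gene end were counted with the nearest part. Of the 62 rows, 7 lay outside the RefSeq gene that the authors' symbol names, at ZNF114, ZNF28, ZNF417, ZNF432 and ZNF586. A ZNF530 row with 8 reads and log2 enrichment 5.34, chr19:57599905-57599937 (GRCh38.p5), overlapped the gene's RefSeq promoter window by 30 bases. It is shown because it was the only row among members that touched such a window.
ZNF530 (chr19:57599905-57599934, plus strand, RefSeq GRCh38.p14): tgtggcgggcactttggcttgtgtcagttc

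The ZNF530 letters above hold neither CTAAC nor CTAAT, forms of the core of the QKI recognition element. ZNF530 had a 5' Pol II peak of 1190 bp in knockdown and 1202 bp in control, and, within 1 kb of its 3' end, a Pol II peak of 4193 bp in control alone. That control peak is also the 5' peak of the next gene, ZNF134, which had a 5' peak of 2302 bp in knockdown, so Pol II was present there in both lists. Members with a control CLIP row had gene-end H3K4me3 in both lists at 33 of 38 (86.8%), and those without one at 160 of 212 (75.5%). The share of all genes was 66.6%. Median gene length was 29859 bp in the 38 and 22843.5 bp in the 212, and a link between CLIP rows and H3K4me3 was not tested. Pol II was in a single list at 3 of the 38 and at 19 of the 212. ZNF90 had a control site of 10 reads with a log2 enrichment of 6.25, although it had no peak of either mark in either list.

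The genes of the KRAB pathway, a fixed list of 22, were marked in both conditions. H3K4me3 lay at a gene end of 21 of 22 in both lists, against 66.6% of all genes, and Pol II at 21 of 22, against 57.6% of all genes. The exception for both was UHRF1, a reader of methylated DNA, which had a Pol II peak of the narrowest width in control alone. TRIM28, the co-repressor itself and a gene of chromosome 19, had H3K4me3 of 5783 bp in knockdown and 5896 bp in control and Pol II of 14265 bp in knockdown and 18573 bp in control. SETDB1 had the largest change, Pol II of 2599 bp in knockdown and 11857 bp in control, with H3K4me3 of 3560 bp in knockdown and 3462 bp in control. In this list only SETDB1 had Pol II at least 1.5-fold narrower in knockdown, against 9.90% of all genes with Pol II in both lists. These are the widest peaks at either gene end, and whether the knockdown and control peaks overlapped was not tested. Pol II was at least 1.5-fold wider in knockdown at 4 of the 21 with Pol II in both lists, against 17.4% of all such genes, so the count is near the background. PPHLN1 of the HUSH complex had 6282 bp in knockdown and 2557 bp in control. CBX1, an HP1 protein, had 1935 bp in knockdown and 1063 bp in control. MORC2, a partner of HUSH, had 6358 bp in knockdown and 3618 bp in control, and ATF7IP, a partner of SETDB1, 2593 bp in knockdown and 1642 bp in control. Control CLIP rows named CBX1, MPHOSPH8 of the HUSH complex, UHRF1 and SETD2, 4 of 22 against 13.2% of all genes, and no knockdown row named any of the 22, against 1.75% of all genes. Of 20 members with a known role, 16 had H3K4me3 at a gene end in both lists, against 77.2% of all members and 66.6% of all genes. Pol II was there in both lists at 13 of the 20, against 73.2% of all members and 57.6% of all genes.

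Monocytic markers carried gene-end H3K4me3 about as often as all genes did. Of 12 such markers it was in both lists at 8, against 66.6% of all genes. The 8 were SPI1, CEBPA, CD33, CD68, LYZ, ITGAM, CD14 and CTSS, and it was absent at CSF1R, MPO, FCGR1A and CYBB. Of 12 markers of other cells it was in both lists at 3, COL1A1, PECAM1 and NEUROD1. The lists hold no measure of QKI5 amount, so the knockdown itself was not checked.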

How the data were processed

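The 22 samples were THP-1 ChIP, CLIP and input libraries, with 2 samples in each group except the knockdown ChIP inputs, of which there were 4. Each deposited list pools both replicates, per the series design text, so no replicate spread, leave-one-out value or p-value between conditions was possible. HOMER and GRCh38.p5 come from the submitters' processing notes. The sources used here name no aligner, no peak calling settings and no use of the inputs.

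The authors deposited 4 ChIP lists whose score is 1 at every peak and whose strand is always plus, so peaks were described by position and width. The deposited CLIP lists have no header. Their columns were read from the values as the authors' −log10 p, log2 enrichment and number of reads of each row, and were used only within their own list. CLIP rows were matched to genes by symbol.

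Gene ends were taken from RefSeq on GRCh38.p14, whose primary chromosomes share coordinates with GRCh38.p5. None of its gene coordinates are printed. Members and lists were chosen with earlier results of these data known. The members include 4 symbols with a hyphen. Strand came from RefSeq promoters for 219 members and from CLIP rows for 6, and 25 had none. The promoter table holds no genes of 1 chromosome, so shares by strand rest on 16299 genes. A gene-end peak lies within 1 kb of an outer gene end by at least 1 bp, a gene-body peak inside the gene over 1 kb from both ends, and an isolated 3' end over 5 kb from the ends of every other gene. A width change means at least 1.5-fold. Genes named are those with a gene-end peak in a single list, those with extreme widths or ratios, 3' or internal peaks, CLIP rows, members with known roles and the KRAB pathway list; examples of unmarked genes and the printed promoters were chosen after their values were seen. Promoters were aligned with Biopython 1.88 (match 1, mismatch -1, gap opening -2, gap extension -0.5). Peak placement was tested on simulated data with planted peaks. A split by KRAB domain or finger number, exons and CLIP site sequences outside promoters were not analysed here.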

Additional observations from a re-analysis of the deposited data

How the results depend on the processing

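Of 80 alternative values for 16 results, 55 stayed within 1.5 times the reported value and 25 moved further. No paired analysis was possible because each list pools both replicates, and for the same reason no replicate could be left out. The counts in a single list were small and moved with the window. H3K4me3 in knockdown alone was at 2 genes with a 500 bp or a 5 kb window and at 0 when any RefSeq start site was counted; in control alone it was at 0 when any start site was counted or when no knockdown peak could lie within 5 kb. Pol II in knockdown alone was at 4 genes with a 5 kb window, 2 when no control peak could lie within 5 kb and 7 over any start site, and Pol II in control alone at 4, 2 and 5. The 3'-end counts also moved. With a 5 kb window H3K4me3 was at 49 members in knockdown and 53 in control, and Pol II at 144 in knockdown and 140 in control. At isolated 3' ends, which are fewer, H3K4me3 was at 1 member in each condition and Pol II at 34 in knockdown and 29 in control. Pol II in the gene body over 5 kb from both ends was at 82 members in knockdown and 88 in control. CLIP members were 1 in knockdown and 7 in control at a -log10 p of at least 10, and 1 in knockdown and 16 in control at 10 or more reads. The median width ratios moved by less than 1.5 times under every alternative. Counting over any start site, 3' Pol II without H3K4me3 there and internal Pol II away from start sites and H3K4me3 were chosen after seeing the data. Depth is unknown, and a peak present in 1 list can be just under the caller's threshold in the other, which was not tested.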
